A study of Homo sapiens with 6 samples.

Results

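The MYC, MAX and MXD network genes followed here are 9 genes chosen by name: MYC, its partner MAX, the MAX-like factor MLX, the MYC antagonists MXD1, MXI1, MXD3, MXD4 and MNT, and the MYC-binding protein gene MYCBP. They are 9 of the 21619 genes in the count files, and all 9 had enough reads to be tested. They were followed in MDA-MB-231 cells, a human line from triple-negative breast cancer. Every group carried EGFP fused to ribosomal protein L10a, so that tagged ribosomes and their mRNAs could be pulled down with anti-GFP beads (translating ribosome affinity purification, TRAP). Whether the engineered cells were a clone or a pool is not given in the sources used here. The 3 groups had 2 libraries each, lettered a and b and labelled as biological replicates. Untreated cells received neither factor, lower dose cells received 30 ng/mL of the chemokine CXCL12 with 10 ng/mL of the growth factor IGF1, and higher dose cells received 300 ng/mL CXCL12 with 100 ng/mL IGF1. All groups, untreated cells included, were first held in 0.2% serum for 24 h, and treatment lasted 6 h. CXCL12 and IGF1 were always given together, so their effects cannot be told apart.

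MYC drives genes of growth, ribosome production and metabolism. It binds DNA only as a dimer with MAX, mainly at the E-box CACGTG. The MXD proteins and MNT pair with MAX at the same sites and recruit SIN3 and histone deacetylases, so they repress where MYC activates. MLX is a second hub. It pairs with the glucose-sensing factors MLXIP (MondoA) and MLXIPL (ChREBP) and also with MXD1, MXD4 and MNT. MYC is classically a growth factor-induced gene, and MXI1 has been described as a target of the forkhead factor FOXO3, which insulin and IGF signalling hold inactive.

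Promoter sequence was available for 8 members in 12 windows of RefSeq (build GRCh38.p14), each running from 250 bases before to 50 bases after an annotated start. MYC had no window, so its promoter was not searched. The E-box is shown because it is the site that the network itself binds. It was found in 1 window each of MLX, MNT and MXD4, at 50, 193 and 238 bases before the start, while 7.26% of all 35116 windows in the table held it. The forkhead core is shown for the FOXO3 link of MXI1. This core, GTAAACA, searched on both strands (the E-box reads the same on both and the motifs do not overlap), was found in 2 of the 3 MXI1 windows, against 3.42% of all windows. One match lay 151 bases before a start and is shown as TGTTTAC on the gene's strand, and the other spanned a start. Capitals below mark the motif, each stretch is written 5′ to 3′ on the gene's strand, and a match in the letters does not show that a factor binds.
MLX, chr17:42567023-42567082, plus strand: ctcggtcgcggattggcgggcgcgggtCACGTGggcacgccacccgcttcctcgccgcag
MNT, chr17:2401221-2401280, minus strand: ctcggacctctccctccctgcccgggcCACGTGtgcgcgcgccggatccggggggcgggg
MXD4, chr4:2262315-2262359, minus strand: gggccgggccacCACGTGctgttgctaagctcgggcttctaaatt
MXI1, chr10:110210053-110210113, plus strand: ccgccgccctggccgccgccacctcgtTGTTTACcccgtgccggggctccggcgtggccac
MLX rose and MNT and MXD4 fell with treatment (values below), so the 3 members with an E-box in the window did not share a direction.

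Each library held between 26255079 and 30280322 reads on genes. A count of 0 allows up to 0.0991 to 0.114 CPM (reads of a gene scaled to the library size) at this depth. Of the line's markers, the mesenchymal gene VIM had 2681 to 3749 CPM, the receptor genes ESR1 and PGR had 0 to 5 reads in a library, and the receptor gene ERBB2 (HER2) had 54.3 to 77.3 CPM. The T cell gene CD3E had 0 reads. The astrocyte marker GFAP was the highest of the markers of other cell types, with 14.8 to 17.7 CPM in the 6 libraries, and its source was not tested. Replicates differed by more than counting noise, with 1.52 to 1.98 chi-square units per degree of freedom. A level here is the share of an mRNA among pulled-down mRNAs, in which abundance, ribosome association and recovery cannot be told apart, and neither can fewer cells and less RNA per cell. Fold changes and adjusted p-values come from edgeR's quasi-likelihood test fitted over 13548 genes, with Benjamini-Hochberg adjustment and a threshold of 0.05. They rest on a small spread (biological coefficient of variation 1.79%), so modest fold changes pass.

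MYC itself passed at neither dose. It had 122 and 129 CPM in the untreated libraries, 123 and 122 CPM in those of the lower dose, and 125 and 123 CPM at the higher dose. The 2 untreated libraries were the most apart, with 3216 and 3918 reads, and the other 4 lay close to the lower of them or between them. The higher dose gave a log2 fold change of −0.02 ± 0.03 against untreated cells (SE, edgeR adjusted p = 0.648), with a 95% interval of −0.09 to 0.05. At the lower dose it was −0.04 ± 0.03 (adjusted p = 0.367), with an interval of −0.11 to 0.03. Only 6 h of treatment was sampled. By root mean square difference over the 6 libraries, on log2 CPM relative to the untreated mean, genes with a pattern close to that of MYC included DNMT1 (0.00948), ATP2B1 (0.0157), SGSM3 (0.0167) and CYBASC3 (0.0169). This pattern was common, and 3402 of the 13547 other genes lay within 0.1 of MYC on this measure.

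**Figure D1:**
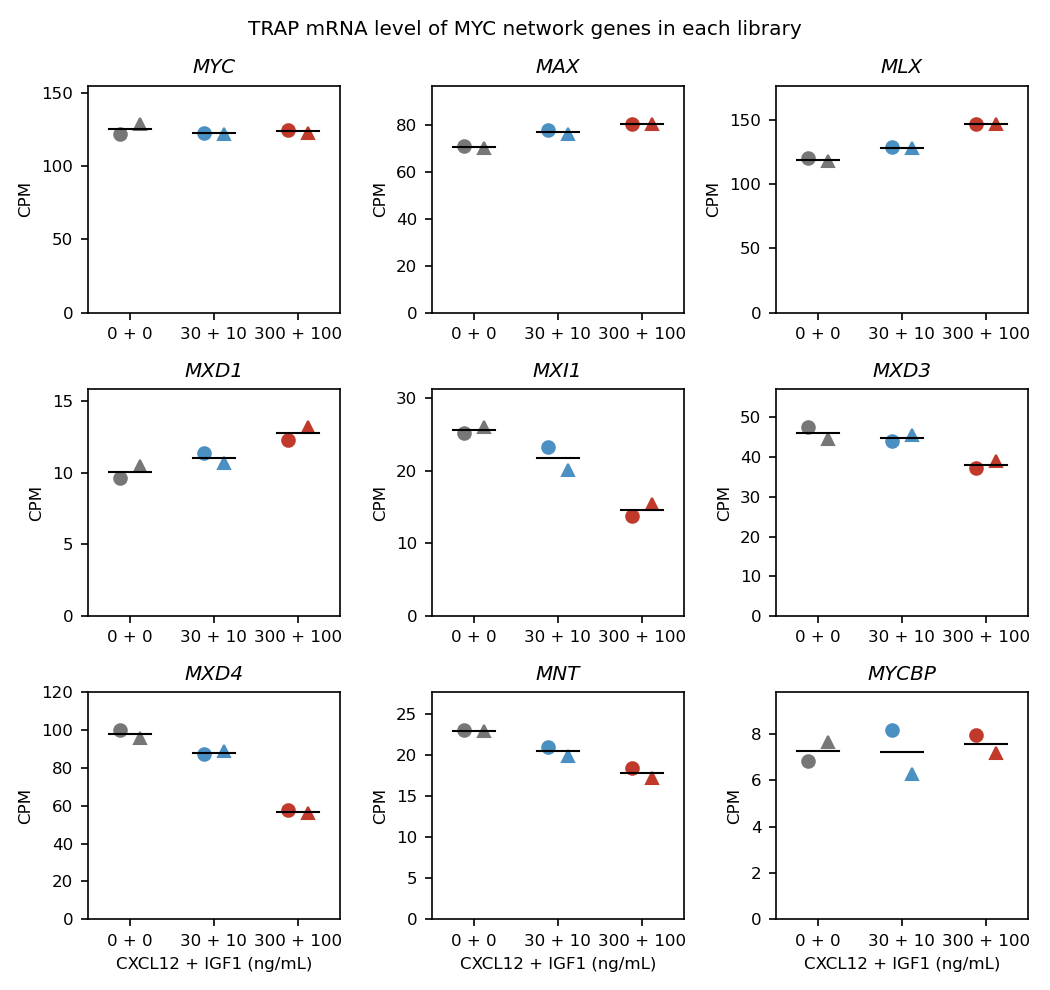
Level of each of the 9 genes (y axis, CPM, from 0) in the 6 libraries, by ng/mL of CXCL12 and IGF1 (x axis). Circles are libraries a, triangles libraries b and lines group means. Libraries of MYC and MYCBP overlap between untreated and treated cells, MAX, MLX and MXD1 are higher with dose, and MXI1, MXD3, MXD4 and MNT are lower at the higher dose.

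Both partner genes rose. MAX is the obligate partner of MYC and a partner of all 5 antagonists. It had 71.0 and 70.5 CPM in the untreated libraries, 78.2 and 76.5 CPM in those of the lower dose, and 80.7 and 80.5 CPM at the higher dose. Its 3 groups did not overlap. The higher dose was 14.0% above untreated cells (log2 0.19 ± 0.04, edgeR adjusted p = 2.24e-05) and the lower dose 9.30% above them (0.13 ± 0.04, adjusted p = 0.00614), the second of which was lost without lower dose a (adjusted p = 0.0807) and with DESeq2 (adjusted p = 0.0737). The higher dose did not pass against the lower dose (0.06 ± 0.04, adjusted p = 0.218). The MAX call depended on the transcript length assumed for it, and the 329 genes within 10% of its median length moved by a median of 0.21 (log2, higher dose against untreated cells). With a correction for length and GC content that used its median annotated transcript of 0.765 kb, the value against untreated cells was 0.00 at the higher dose (adjusted p = 0.969) and 0.01 at the lower (adjusted p = 0.937). With its longest transcript of 3.155 kb, a check added after the data were seen, these were 0.20 (adjusted p = 2.37e-06) and 0.13 (adjusted p = 0.00326).

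MLX had 120 and 118 CPM in the untreated libraries, 129 and 128 CPM in those of the lower dose, and 147 CPM in each higher dose library. Its level followed the dose with no overlap between groups. It was 24.0% higher at the higher dose than in untreated cells (log2 0.31 ± 0.03, edgeR adjusted p = 3.33e-12). The lower dose gave 0.11 ± 0.03 against untreated cells (adjusted p = 0.00464), lost without lower dose a (adjusted p = 0.0520) or untreated b (adjusted p = 0.0547), and the higher dose against the lower 0.20 ± 0.03 (adjusted p = 1.48e-06). Annotated MLX exons (GENCODE release 29) share 29.7% of their bases with PSMC3IP on the opposite strand, and the use of strand in counting is not given in the sources used here. PSMC3IP itself had 21.3 and 24.6 CPM at the higher dose, against 15.1 and 17.9 CPM in untreated cells, and its part in the MLX result was not tested.

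Of the 5 antagonists, 4 fell at the higher dose against untreated cells and 1, MXD1, rose, with a median log2 fold change of −0.36 against 0.00 over all genes tested. MXI1 and MXD4 fell the furthest, and MNT and MXD3 fell by less. Over all genes, 28.2% were called down and 28.1% up in this comparison, and 4.08% were called down by at least 1.5-fold, as MXI1 and MXD4 were.

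MXI1 (also MXD2) is a repressor long studied as a MYC antagonist. It had 25.2 and 26.0 CPM in the untreated libraries, 23.3 and 20.1 CPM in those of the lower dose, and 13.7 and 15.4 CPM at the higher dose. The 3 groups did not overlap, and the 2 lower dose libraries were the most apart. It fell by 43.0% at the higher dose against untreated cells (log2 −0.81 ± 0.07, edgeR adjusted p = 1.15e-14). Against the lower dose the value was −0.57 ± 0.07 (adjusted p = 5.76e-09). The lower dose against untreated cells gave −0.24 ± 0.07 (adjusted p = 0.00334), a call that was lost without lower dose b (−0.13, adjusted p = 0.205) and with DESeq2 (adjusted p = 0.0806). MXI1 has several annotated starts, and counts per gene do not separate its isoforms.

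MXD4 gave the largest number of antagonist reads, 1596 to 2905 in a library. It had 100 and 95.8 CPM in the untreated libraries, 87.4 and 88.8 CPM in those of the lower dose, and 57.6 and 56.0 CPM at the higher dose. Most of its fall lay between the doses. The higher dose was 42.0% below untreated cells (log2 −0.78 ± 0.04, edgeR adjusted p = 1.69e-24), which placed MXD4 71st of 13548 genes by p-value. Against the lower dose it was 35.5% lower (−0.63 ± 0.04, adjusted p = 3.75e-19), the 11th smallest p-value of that comparison. The lower dose gave −0.15 ± 0.04 against untreated cells (adjusted p = 0.000624), and with either length and GC correction it did not pass (−0.08 in both, adjusted p = 0.0833 and 0.0585).

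MNT, the broadly expressed antagonist that is found beside MYC in cycling cells, had 23.0 and 22.9 CPM in the untreated libraries, 21.0 and 19.9 CPM in those of the lower dose, and 18.4 and 17.2 CPM at the higher dose. The groups did not overlap. It fell by 22.3% at the higher dose against untreated cells (log2 −0.36 ± 0.07, edgeR adjusted p = 3.53e-06). The lower dose call against untreated cells was marginal (−0.16 ± 0.06, adjusted p = 0.0410), and it was lost when any of the 4 libraries was left out (adjusted p = 0.0515 to 0.259), with DESeq2 (0.231) and with either length and GC correction (0.180 and 0.313). Between the doses MNT had −0.20 ± 0.07 (adjusted p = 0.0146), lost without lower dose a (adjusted p = 0.148) or higher dose b (adjusted p = 0.199) and with DESeq2 (adjusted p = 0.141).

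MXD3, an MXD protein known in mice for expression in S phase, had 47.6 and 44.6 CPM in the untreated libraries, 44.0 and 45.5 CPM in those of the lower dose, and 37.2 and 39.0 CPM at the higher dose. The untreated and lower dose libraries overlapped, and the higher dose libraries lay below both. It fell by 17.2% at the higher dose against untreated cells (log2 −0.27 ± 0.05, edgeR adjusted p = 3.52e-06), and the value against the lower dose was −0.23 ± 0.05 (adjusted p = 0.000143). The lower dose did not pass against them (−0.04 ± 0.05, adjusted p = 0.541). MXD3 exons share 22.2% of their bases with PRELID1 on the other strand, which had 221 and 228 CPM at the higher dose, against 187 and 190 CPM in untreated cells. The effect of that overlap on MXD3 was not tested.

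MXD1, the first described MXD gene and a marker of differentiating cells, went the other way. It had 9.66 and 10.5 CPM in the untreated libraries, 11.4 and 10.7 CPM in those of the lower dose, and 12.3 and 13.2 CPM at the higher dose, from 254 to 375 reads a library. No group overlapped another. It rose by 25.7% at the higher dose against untreated cells (log2 0.33 ± 0.09, edgeR adjusted p = 0.000911). The lower dose did not pass against untreated cells (0.12 ± 0.09, adjusted p = 0.314). Its rise at the higher dose against the lower sat at the threshold (0.21 ± 0.08, adjusted p = 0.0485) and was lost with DESeq2 (adjusted p = 0.262) and without any 1 of those 4 libraries (adjusted p = 0.0582 to 0.309).

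MYCBP (AMY-1), whose product binds the amino-terminal part of MYC, had the fewest reads, 180 to 236 in a library. It had 6.85 and 7.65 CPM in the untreated libraries, 8.17 and 6.26 CPM in those of the lower dose, and 7.98 and 7.20 CPM at the higher dose. All groups overlapped. The higher dose gave 0.06 ± 0.11 against untreated cells (log2, edgeR adjusted p = 0.671, 95% interval −0.16 to 0.28), so a change of that width was not detectable at this depth. The read-through gene GJA9-MYCBP shares 15.5% of the bases of MYCBP exons and had 0 to 2 reads.

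**Figure D2:**
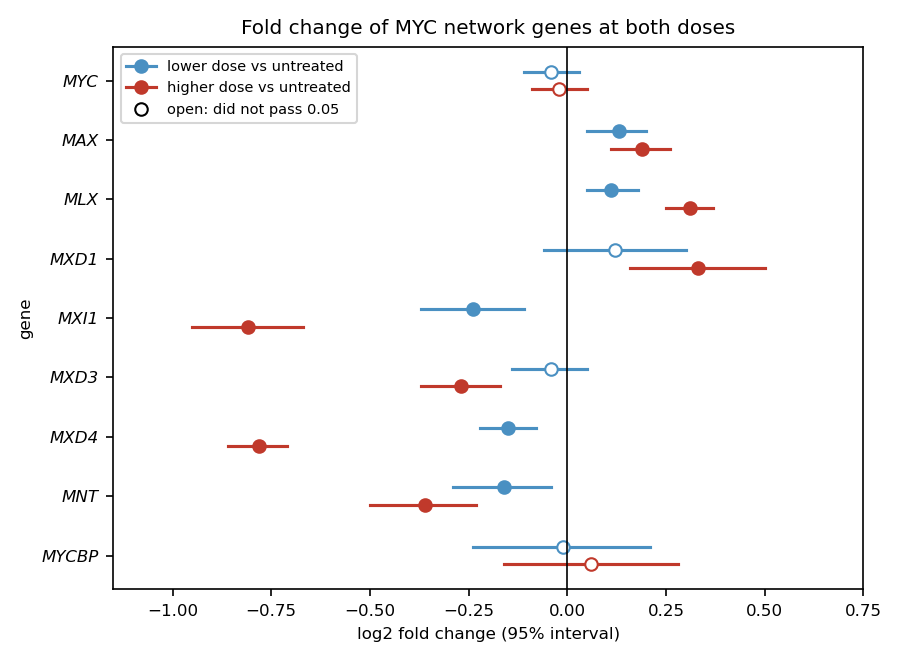
Log2 fold change (x axis) of each gene (y axis) for the lower dose (blue) and the higher dose (red), each against untreated cells, with 95% intervals from the edgeR fit; open points did not pass an adjusted p of 0.05. The intervals of MXI1 and MXD4 at the higher dose lie between −0.95 and −0.67, and those of MYC include 0 at both doses.

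In counts, 7 of the 9 genes passed at the higher dose against untreated cells, 3 up (MAX, MLX, MXD1) and 4 down (MXI1, MXD3, MXD4, MNT), where 56.3% of all genes passed. At the lower dose 5 of 9 passed against untreated cells, 2 up (MAX, MLX) and 3 down (MXI1, MXD4, MNT), where 32.6% of all genes passed, 16.7% up and 15.9% down. Between higher and lower dose 6 passed, 2 up (MLX, MXD1) and 4 down (MXI1, MXD3, MXD4, MNT), where 34.0% of all genes passed, 16.4% up and 17.6% down. Only MXD4 among the 9 fell by at least 1.5-fold in that last comparison, as did 0.856% of all genes. Both doses were compared with the same untreated libraries, so their values are not independent of each other. If the spread between libraries were 10%, a level set after the data were seen, MXI1 and MXD4 alone would pass at the higher dose against untreated cells.

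Relative to its antagonists, MYC stood higher at the higher dose than in untreated cells. MYC reads over the summed reads of MXD1, MXI1, MXD3, MXD4 and MNT came to 0.595 and 0.647 in untreated cells, 0.657 and 0.658 at the lower dose, and 0.899 and 0.875 at the higher dose. The higher dose libraries stood apart from the other 4. Their log2 ratio was 0.52 above that of untreated cells, while the SD between libraries of a group was 0.063. The lower dose was 0.08 above untreated cells, where that SD was 0.060, and it was 0.02 without untreated a and 0.14 without untreated b. No test is given for this ratio, since 2 libraries against 2 cannot pass 0.05 in an exact permutation test. The summed antagonists averaged 140 ± 1.1 CPM at the higher dose and 203 ± 4.1 CPM in untreated cells (SD, n = 2 each). The read ratios above do not allow for transcript length. With reads divided by the length of the longest annotated transcript, they were 0.872 and 0.954 in untreated cells. The lower dose then had 0.964 and 0.959, and the higher dose 1.31 and 1.26.

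The ratio differed by antagonist. MYC reads per MXI1 read were 9.11 and 7.98 at the higher dose, against 4.85 and 4.98 in untreated cells. Per MXD4 read they were 2.17 and 2.20, against 1.22 and 1.35 in untreated cells. For MNT the higher dose libraries had 6.78 and 7.18 and the untreated libraries 5.32 and 5.65. For MXD3 they were closer, 3.37 and 3.16 at the higher dose against 2.57 and 2.90 in untreated cells. MXD1 moved in the other direction, with 10.2 and 9.36 MYC reads per MXD1 read at the higher dose against 12.7 and 12.3 in untreated cells. MXD4 made up 40.6% of the antagonist CPM at the higher dose and 48.3% in untreated cells, and MXD1 9.08% and 4.98%. As the mean of the 5 log2 ratios, which gives MXD1 the same weight as MXD4, the difference between higher dose and untreated cells was 0.36.

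**Figure D3:**
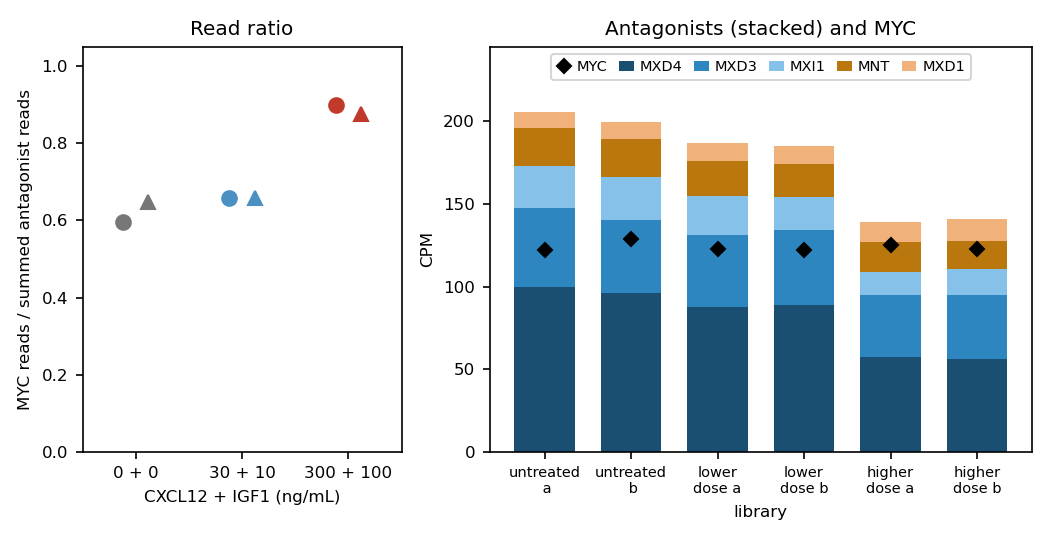
Left, MYC reads divided by the summed reads of the 5 antagonists (y axis) in each library by dose in ng/mL (x axis). Right, CPM of each antagonist stacked from 0 per library, with MYC CPM as diamonds. MYC stays between 122 and 129 CPM, while the stack is 139 and 141 CPM in the higher dose libraries and 206 and 200 CPM in the untreated libraries.

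Levels between genes were compared per length, as CPM per kb of the longest annotated transcript. In untreated cells the order of the means was MYC (53.2), MLX (46.0), MXD4 (24.2), MAX (22.4), MXD3 (20.3), MXI1 (7.37), MNT (4.59), MYCBP (2.57) and MXD1 (1.81). At the lower dose it was MYC (51.7), MLX (49.7), MAX (24.5), MXD4 (21.7), MXD3 (19.7), MXI1 (6.26), MNT (4.10), MYCBP (2.56) and MXD1 (1.97). At the higher dose it was MLX (57.0), MYC (52.5), MAX (25.6), MXD3 (16.8), MXD4 (14.0), MXI1 (4.20), MNT (3.56), MYCBP (2.69) and MXD1 (2.28). The SD of these means lay between 0.013 and 2.0 CPM per kb (n = 2 each), and no neighbours in any of the 3 orders overlapped between libraries. On this length, MLX stood above MYC, and MXD3 above MXD4, at the higher dose alone. The order depends on the length used. Per kb of the median transcript MXD3 stood above MXD4 in all 3 groups (30.6 and 24.2 in untreated cells, 29.6 and 21.7 at the lower dose, 25.3 and 14.0 at the higher dose). On that length MYC and MLX were level at the higher dose (60.8 and 60.7). MAX, with many short annotated isoforms, then came first in all 3 groups. It had 92.5 in untreated cells, 101 at the lower dose and 105 at the higher dose.

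Other genes of the pathway were taken from lists by their known roles, drawn up with earlier results of these data known. Among 8 further E-box binding factors and partners, 7 were tested, and at the higher dose 1 rose, 2 fell and 4 did not pass against untreated cells (median −0.01, 0.00 over all genes). That is no larger a share than the 56.3% of all genes that passed. MLXIP, the MondoA partner of MLX, had 0.13 ± 0.04 (log2, edgeR adjusted p = 0.00502), lost without untreated b (adjusted p = 0.0511) and with DESeq2 (adjusted p = 0.0614). MGA, a large MAX partner, had −0.14 ± 0.06 (adjusted p = 0.0352), lost without untreated a or b or without higher dose a (adjusted p = 0.0729 to 0.593), with DESeq2 (adjusted p = 0.188) and with the length and GC corrections (−0.01 and −0.06, adjusted p = 0.857 and 0.381). MLXIPL had 5 to 15 reads at the higher dose and 20 to 25 in untreated cells (−1.16 ± 0.40, adjusted p = 0.0108), and it was lost without higher dose a (adjusted p = 0.269) or untreated b (adjusted p = 0.0611). The MYC paralogue MYCN had 0 reads in every library and MYCL1 (MYCL) 7 to 15. TXNIP and ARRDC4, glucose-responsive targets of MondoA and MLX, did not pass at the higher dose against untreated cells, where TXNIP had 176 ± 5.3 CPM against 178 ± 3.4 CPM in untreated cells (SD, n = 2 each). With 161 ± 4.7 CPM at the lower dose, TXNIP fell there against untreated cells (log2 −0.14 ± 0.03, adjusted p = 0.000314) and was higher at the higher dose than at the lower (0.12 ± 0.03, adjusted p = 0.00131). ARRDC4 did not pass in the 3 comparisons (edgeR adjusted p = 0.388 to 0.890).

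More than 1 corepressor that MXD proteins and MNT recruit fell. Of 9 SIN3 and histone deacetylase genes, 5 fell, 3 rose and 1 did not pass at the higher dose against untreated cells, with a median of −0.22. Over all genes 28.2% fell and 28.1% rose, with a median of 0.00. SIN3B, a scaffold that MXD proteins bind, had 104 ± 0.35 CPM at the higher dose and 135 ± 7.2 CPM in untreated cells (SD, n = 2 each; log2 −0.38 ± 0.03, edgeR adjusted p = 7.67e-14). SIN3A, the other scaffold, fell as well (−0.29 ± 0.05), as did the corepressor NCOR1 (−0.32 ± 0.03). Among the rises, HDAC2 (0.13) and SAP18 (0.12) changed by less than these. HDAC2 and SAP18 each missed the threshold under 1 of the 2 length and GC corrections (adjusted p = 0.0735 for HDAC2 and 0.446 for SAP18).

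Of 17 MYC cofactors, 4 rose, 7 fell and 6 did not pass at the higher dose against untreated cells (median −0.02). The 11 that passed were near the 56.3% of all genes that did. HCFC1, which MYC contacts to activate growth genes, had 0.32 ± 0.03, the chromatin scaffold WDR5 0.29 ± 0.03, and the acetyltransferase KAT2A 0.13 ± 0.04. The falls were led by EP400, a chromatin remodeller (−0.32 ± 0.05), the elongation cyclin gene CCNT1 (−0.30 ± 0.10) and BPTF (−0.28 ± 0.05). CCNT1 was lost without untreated a (adjusted p = 0.141) or higher dose b (adjusted p = 0.128) and with DESeq2 (adjusted p = 0.0839).

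Of 18 genes that act on the stability of MYC protein, 10 rose, 7 fell and 1 did not pass (median 0.15), where 28.1% of all genes rose and 28.2% fell. FBXW7, the ubiquitin ligase adaptor that marks phosphorylated MYC for destruction, had 13.6 ± 1.1 CPM at the higher dose and 8.47 ± 0.94 CPM in untreated cells (SD, n = 2 each; log2 0.67 ± 0.09, edgeR adjusted p = 6.82e-09). USP36, a nucleolar deubiquitinase that protects MYC, rose too (0.42 ± 0.05), and so did the ligase STUB1 (0.29 ± 0.04). USP28, a deubiquitinase that counters FBXW7, fell (−0.38 ± 0.05), as did the kinase PIM1 (−0.35 ± 0.06) and the ligase adaptor BTRC (−0.35 ± 0.06). MYC protein was not measured.

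Genes commonly listed as activated by MYC were mostly higher, while MYC mRNA did not pass. Of 57 such genes, 56 were tested, and 45 rose, 3 fell and 8 did not pass at the higher dose against untreated cells, with a median of 0.27. Over all genes 28.1% rose and 28.2% fell, with a median of 0.00. The lower dose gave 18 rises, 2 falls and 36 that did not pass (median 0.03), where 16.7% of all genes rose and 15.9% fell. Omission of a library changed this number of falls in both directions. Between higher and lower dose 42 rose, 0 fell and 14 did not pass (median 0.24), where 16.4% of all genes rose and 17.6% fell. An unadjusted p under 0.05 and DESeq2 also gave 0 falls there, while 1 gene fell with the length and GC correction by the longest transcript and 1 without higher dose a. If the spread were 10%, 17 of the list would pass as higher and 0 as lower at the higher dose against untreated cells. Of all 13548 genes, 805 would pass as higher and 948 as lower in that comparison. Many genes of the list act in ribosome production. NOP16, a nucleolar factor, had 62.8 ± 0.71 CPM at the higher dose and 33.9 ± 0.25 CPM in untreated cells (SD, n = 2 each; log2 0.89 ± 0.05, edgeR adjusted p = 1.00e-23). PUS1, a pseudouridine synthase, had 39.6 ± 0.48 and 22.6 ± 0.32 CPM in those groups (0.81 ± 0.05).

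DUSP2, a phosphatase gene with 36 to 50 reads at the higher dose and 19 to 25 in untreated cells, had 0.96 ± 0.27 (adjusted p = 0.00203), lost without higher dose a (adjusted p = 0.0841) and with DESeq2 (adjusted p = 0.0562). The 3 falls, MPHOSPH10 (−0.14), LAS1L (−0.11) and the mitotic kinase PLK1 (−0.10), were small, and each was lost without higher dose b (adjusted p = 0.129 for MPHOSPH10, 0.535 for LAS1L and 0.148 for PLK1). Omission of untreated b lost MPHOSPH10 (adjusted p = 0.246) and LAS1L (adjusted p = 0.0552) as well, and omission of higher dose a lost MPHOSPH10 (adjusted p = 0.0790). The number of falls on the list moved both up and down when a library was left out. With the length and GC correction by the longest transcript, 39 of the list rose and 4 fell. By the median transcript 42 rose and 3 fell, and LAS1L was not among those falls (−0.09, edgeR adjusted p = 0.0566). With DESeq2, 39 rose and 1 fell, and MPHOSPH10 (adjusted p = 0.182) and LAS1L (adjusted p = 0.127) did not pass.

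Of 11 genes described as repressed by MYC, 8 were tested, and 4 fell, 3 rose and 1 did not pass (median −0.11), where 28.2% of all genes fell and 28.1% rose. NDRG1, a stress and differentiation gene, fell (log2 −0.75 ± 0.03), and so did the iron genes HFE (−0.47 ± 0.10) and FTH1 (−0.46 ± 0.03). The cell cycle inhibitor CDKN1A rose (0.41 ± 0.03), as did BCL2 (0.40 ± 0.09) and the stress gene GADD45A (0.27 ± 0.05). These are all values at the higher dose against untreated cells.

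**Figure D4:**
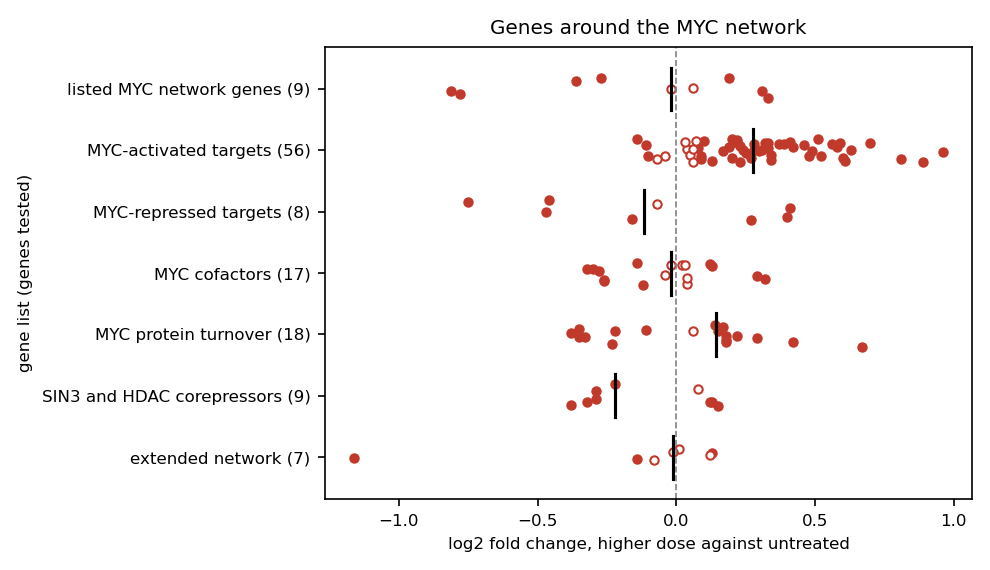
Log2 fold change at the higher dose against untreated cells (x axis) for the 9 genes and for each list (y axis, genes tested in brackets). Filled points passed an adjusted p of 0.05, open points did not, and black bars are medians. Genes listed as activated by MYC have a median of 0.27, and the SIN3 and deacetylase list one of −0.22.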

How the data were processed

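The authors deposited unnormalized counts of reads on genes, 1 table for each of the 6 libraries. The submitters' processing notes name CASAVA 1.8.1, TopHat 1.4.0, HTSeq and hg19. The sources used here do not give the annotation, the counting mode or the use of strand. The 5 HTSeq summary lines (9.40% to 10.2% of reads) were left out. Groups come from the treatment labels.

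All libraries entered 1 edgeR 4.0.16 fit in R 4.3.3 (TMM, filterByExpr, robust quasi-likelihood, 3 group means, 3 residual degrees of freedom), with 13548 of 21619 genes tested. SE is |log2 fold change| divided by √F. The test was also run on counts simulated with the fitted spread of 1.79% for every gene and few genes changed. That run cannot speak to a larger or uneven spread, or to many genes changing. Alternatives used DESeq2 1.42.0, other scalings, no filter, a replicate block, a length and GC correction (19965 genes matched in GENCODE 29) and omission of each library. The members, lists and tests were chosen with earlier results of these data known. All members are named, and of each list up to 3 called genes per direction with the largest higher dose change; some genes that these rules select are not reported here. TMM takes most genes as unchanged. P-values measure only the spread between these libraries, which may be partly technical, and floors cover counting error only.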

Additional observations from a re-analysis of the deposited data

How the results depend on the processing

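At the higher dose against untreated cells, all 7 calls held with other scalings, no filter, DESeq2, the compared groups alone and each library left out. MAX turned to 0.00 under the length and GC correction by median transcript (0.20 by the longest). The fixed spread of 10%, added after the data were seen, left 2 of the 9 genes called at the higher dose (1753 genes in all), 0 at the lower dose (1 gene) and 1 between doses (69 genes). At the lower dose DESeq2 called 2 of the 9 (2562 genes), the length and GC correction 2 (3 by the longest transcript), and omission of 1 library 2 to 5. Between doses, where 6 of the 9 were called, DESeq2 called 4 (2758 genes). Upper-quartile scaling and no filter each called 5 there, and both length and GC corrections 6. The log2 ratio of MYC to its antagonists moved to 0.36 as a mean of 5 ratios. For the calls lost, the cause was not tested.

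The letters a and b are not stated to pair libraries, and differences of a and b correlated at −0.04 to 0.00 between groups across genes. With the replicate block, 7, 5 and 5 of the 9 genes were called at the higher dose, at the lower dose and between doses (7561, 4320 and 4516 genes in all).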
